A study of Mus musculus with 6 samples.

Results

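The genes described here are 10 genes of the piRNA pathway and of the germ granules in which it works: Piwil1, Piwil2, Mov10l1, Ddx4, Tdrd1, Tdrd6, Tdrd7, Tdrkh, Mael and Asz1. They were chosen by name, and each is represented by the array probes annotated to that single symbol. Of the 10 genes, 8 had such a probe, 1 probe each, among 33012 probes and 13840 genes with a single symbol. Tdrd6 and Tdrkh had no probe under a single symbol and were not analysed here. Expression was measured in single oocytes, 1 oocyte per Applied Biosystems chemiluminescent mouse array, and the labels give 2 groups of 3 oocytes. The first group holds mature oocytes from [Ago2F/F, Zp3-Cre] conditional knockout females, in which a floxed Ago2 gene is deleted by Cre under the zona pellucida 3 promoter, so that deletion starts only in the growing oocyte and the rest of the mouse keeps the gene. The second group holds wild-type oocytes labelled as germinal vesicle (GV) oocytes, the immature stage before the meiotic divisions resume. The labels state that the GV oocytes came from oviducts of adult females and had their cumulus cells removed with hyaluronidase. The age of the knockout females is not given in the labels. The methods of the paper describe ovulated oocytes as taken from oviducts of adult females, without naming a genotype there. Oviducts hold ovulated oocytes, which are past the GV stage, whereas GV oocytes lie in the ovary, so that the labelled source and the labelled stage conflict. The group is called GV here as labelled, its stage was not tested, and every comparison rests on that label. Genotype and stage differ together between the groups and cannot be told apart.

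piRNAs are small RNAs bound by Piwi proteins, a branch of the Argonaute family, and they guide the silencing of transposons in germ cells. Their precursors are handled by RNA helicases and nucleases in cytoplasmic granules (nuage) next to mitochondria, where Tudor domain proteins bind methylated arginines of the Piwi proteins and hold the granule together. In mice most of these genes are known for their need in the male germ line, where loss leads to sterility, whereas mutant females are mostly fertile. The growing mouse oocyte also holds piRNAs, beside a second class of small RNAs, the endogenous siRNAs, which are made by Dicer and loaded on Ago2.

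The arrays of the 2 groups differed in how much they detected. With detection set at a signal-to-noise ratio (S/N) of 3 or more, each Ago2-deficient oocyte had 4620 to 6798 detected probes and each GV oocyte 10650 to 11334. Undetected probes had a median signal of 145 to 231 on the Ago2-deficient and 70.8 to 83.3 on the GV arrays. The part of this difference in the results below was not tested. On the quantile-normalized log2 scale the Ago2 probe read 6.67, 6.49 and 6.94 in the knockouts against 7.88, 6.25 and 6.93 in the wild type, and since no source used here places it inside or outside the deleted exons, it does not check the genotype. Among 10 oocyte markers, every GV oocyte had 10 detected, while 8 were detected throughout the Ago2-deficient group, and Zp2 and Figla were detected in no Ago2-deficient oocyte. These markers were lower too: 7 of 10 were called lower in the fit over every probe described below, with a median log2 difference of -2.38, beside -2.26 for the 8 measured genes of the pathway. Of 13 cumulus and granulosa markers on the array, 0 were detected in all 3 Ago2-deficient and 2 in all 3 GV oocytes (Inha and Nr5a2), while 7 were detected in no Ago2-deficient and 7 in no GV oocyte. The log2 of their summed level was 11.36 to 11.83 in Ago2-deficient and 12.04 to 12.74 in GV oocytes, and their part in the results was not tested.

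The promoter sequences of the genes are shown first. RefSeq (GRCm38.p6) promoter sequences were found for 8 of the 10 genes, with 12 gene starts in all. None is given here for Piwil2 and Tdrd6. Among the 250 bases before each start, 3 motifs were searched on both strands: the E-box CACGTG, which reads the same on both strands, the E2F motif TCCCGC and the MYB motif TAACNG. The E-box is bound by basic helix-loop-helix proteins. MYB motifs are bound by A-MYB, the factor that switches on piRNA pathway genes in spermatocytes. The 5 genes with an E-box are shown, each 5′ to 3′ and ending at the base before the gene start, with all motif matches in capitals.
Piwil1, chr5:128735996-128736245 (GRCm38.p6, plus strand): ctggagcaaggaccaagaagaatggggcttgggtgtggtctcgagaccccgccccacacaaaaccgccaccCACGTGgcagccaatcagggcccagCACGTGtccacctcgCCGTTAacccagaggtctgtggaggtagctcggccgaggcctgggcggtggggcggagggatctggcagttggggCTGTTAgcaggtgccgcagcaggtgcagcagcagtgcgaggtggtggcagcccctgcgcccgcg
Mov10l1, chr15:88982744-88982993 (GRCm38.p6, plus strand): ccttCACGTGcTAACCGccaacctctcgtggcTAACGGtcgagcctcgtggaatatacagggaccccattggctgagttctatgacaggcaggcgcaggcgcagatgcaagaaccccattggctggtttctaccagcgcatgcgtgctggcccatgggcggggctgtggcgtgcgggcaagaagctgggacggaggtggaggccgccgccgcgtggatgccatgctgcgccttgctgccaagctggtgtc
Ddx4, chr13:112652311-112652560 (GRCm38.p6, minus strand): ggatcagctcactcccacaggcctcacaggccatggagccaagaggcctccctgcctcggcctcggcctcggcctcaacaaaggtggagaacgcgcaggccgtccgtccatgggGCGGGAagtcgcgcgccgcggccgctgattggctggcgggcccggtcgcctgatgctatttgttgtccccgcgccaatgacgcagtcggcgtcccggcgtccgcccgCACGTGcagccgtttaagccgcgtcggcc
Mael, chr1:166238745-166238994 (GRCm38.p6, minus strand): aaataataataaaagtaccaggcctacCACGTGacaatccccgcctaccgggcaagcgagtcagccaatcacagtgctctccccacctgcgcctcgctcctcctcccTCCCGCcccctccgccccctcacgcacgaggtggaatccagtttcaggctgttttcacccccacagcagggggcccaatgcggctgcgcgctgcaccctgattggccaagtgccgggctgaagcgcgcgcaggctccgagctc
Tdrd1, chr19:56825959-56826208 (GRCm38.p6, plus strand): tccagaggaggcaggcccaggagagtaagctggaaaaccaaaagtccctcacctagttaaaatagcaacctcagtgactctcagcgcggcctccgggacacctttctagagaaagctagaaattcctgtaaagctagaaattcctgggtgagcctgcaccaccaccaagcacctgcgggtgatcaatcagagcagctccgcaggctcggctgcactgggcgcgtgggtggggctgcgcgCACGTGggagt

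The E-box was present in 6 of the 12 promoters, from 5 genes, and in 6.02% of the 32851 promoters of all genes. Piwil1 had 2 E-boxes, whose first bases lay 179 and 154 bases before the start, followed by MYB matches at 139 and 64. In Mov10l1 the E-box at 246 was followed by MYB matches at 239 and 218. In Tdrd1 the same E-box lay 11 and 77 bases before 2 neighbouring starts, of which the first is shown. Ddx4 had its E-box 29 bases before the start and Mael at 223. The MYB motif was found in 4 of the 12 promoters (Piwil1, Mov10l1, Tdrd7 and Tdrkh), beside 19.8% of all promoters. The E2F motif was found in 2 of the 12 (Ddx4 and Mael), a share close to the 16.9% of all promoters. No match of one motif overlapped a match of another in these genes. Asz1 had none of these letters in its window. The 12 windows had a GC content of 46.4% to 73.2%, with a median of 52.4% over all promoters, and held 3 to 31 CpG dinucleotides, with a median of 6 over all promoters. Of the measured genes with an E-box, Piwil1, Mael and Tdrd1 were called lower over every probe below, and Mov10l1 and Ddx4 were not. Tdrd7 and Asz1 lack an E-box and were called lower. Whether motifs and levels are related was not tested. These are matches of letters, and binding was not measured.

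**Figure D1:**
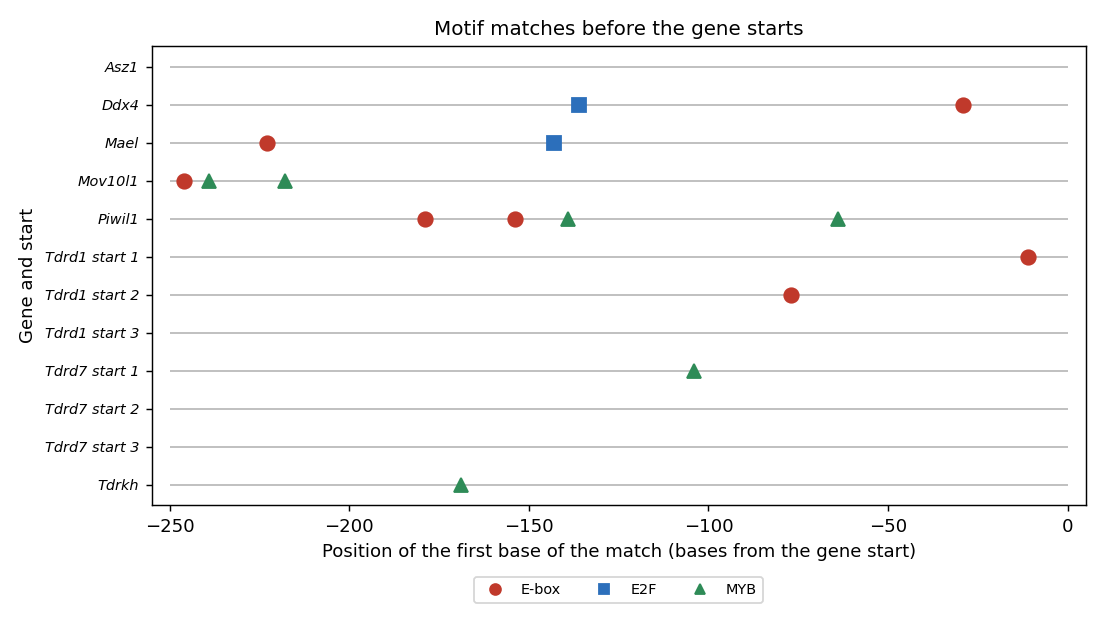
Motif matches in the 250 bases before each RefSeq gene start of the 8 genes with a promoter sequence; the horizontal axis is the position of the first base of the match in bases from the start, each line is 1 start, and circles, squares and triangles are E-box, E2F and MYB matches. Circles appear on 6 of 12 lines, in 5 genes.

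Of the 8 genes measured, 5 were called lower in the mature Ago2-deficient oocytes than in the GV oocytes when every gene was tested: Piwil1, Tdrd1, Tdrd7, Mael and Asz1. Mov10l1 was lower on each Ago2-deficient array but missed the threshold there (adjusted p = 0.0524 from limma), and the levels of Piwil2 and Ddx4 overlapped between the groups. Piwil1, Mov10l1, Mael, Asz1, Tdrd1 and Tdrd7 were each detected in 3 of 3 GV oocytes and in no Ago2-deficient oocyte. Of the 8 probes, 0, 0 and 1 were detected on the Ago2-deficient arrays and 7, 7 and 6 on the GV arrays. In every share of all genes here and below, a probe with no symbol or several symbols counts as a gene of its own. The 32441 entries held 18354 probes with no symbol and 247 with several, beside 13840 genes with a single symbol. Shares over genes with a single symbol alone were not computed. For comparison, 23.6% of all genes on the array were detected in all 3 GV and 8.46% in all 3 Ago2-deficient oocytes. Of the former, 33.8% were detected in no Ago2-deficient oocyte. Levels were compared with limma on the authors' quantile-normalized log2 values, and calls required an adjusted p under 0.05 together with a change of more than 2-fold. With the fit over every probe, which holds all 8 genes, 5 were lower and 0 were higher, while 9.12% of all genes were lower and 5.26% higher. At an unadjusted p under 0.05 the counts were 6 and 0, beside 8309 of 32441 genes in either direction. The median log2 difference of the 8 was -2.26, and that of all genes 0.13. In the fit limited to probes that 1 group or both detected on each of its 3 arrays, 6 of the genes were tested and all 6 were lower and 0 higher, beside 44.8% and 17.4% of all genes tested. In the log2 values the groups did not overlap for 6 of the 8, all lower. Of all genes, 17.2% were lower without overlap, as were 50.3% of those tested after the filter. In the signal without scaling the same number were lower without overlap, beside 15.8% and 63.0%, and Piwil2 was higher without overlap. The share of all genes higher without overlap was not computed. With no scaling, 8439 of 32441 genes were called higher over every probe. The 6 genes tested after the filter passed it through the GV oocytes alone, so that their count supports nothing by itself. Whether the oocytes came from separate animals is not in the labels, and the p-values therefore cover only the spread among these oocytes. Values of single genes below are from the fit after the filter unless said otherwise. For the 6 genes tested, the adjusted p of that fit was smaller than over every probe. Over every probe it was 0.00173 for Piwil1, 0.00235 for Tdrd1, 0.00517 for Tdrd7, 0.00325 for Mael and 0.0335 for Asz1 (limma). For genes of other lists the adjusted p over every probe was 0.0486 for Tdrd12, 0.000591 for Exd1 and 0.00164 for Dnmt3l (limma). It was 0.00869 for Tdrd3 and 0.00118 for Nanos1. These genes also passed the filter through GV oocytes alone. For Tex15, which passed through Ago2-deficient oocytes alone, it was 0.00455. Each was larger than the value after the filter. Where a gene was detected in no Ago2-deficient oocyte, its fold is a bound, computed with the GV mean over, on each Ago2-deficient array, the higher of the gene's own level and the lowest level of any detected probe. For Mov10l1, Tdrd1, Mael and Asz1, and for the genes of other lists except Clns1a, the gene's own level was the higher on each array, and the bound then equals the fitted fold. The bounds hold for the quantile-normalized values only, and other scalings gave smaller or larger differences for many of these genes. With arrays scaled to a common median all 6 genes tested differed more, Tdrd1 by -5.44 in place of -3.70. With cyclic loess Tdrd1 differed by -1.59. The lowest detected level was 6.13, 6.02 and 6.31 on the Ago2-deficient arrays, and undetected probes also read above it. The words at least therefore refer to this computed bound and not to a strict limit.

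**Figure D2:**
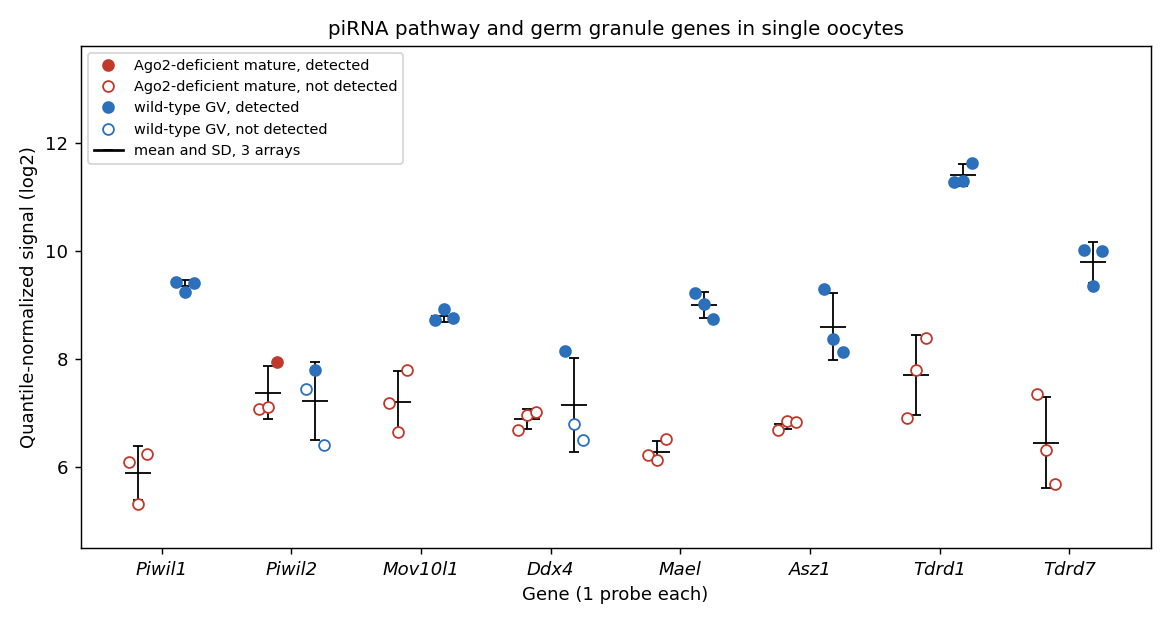
Quantile-normalized log2 signal (vertical axis) of the 8 genes in 3 Ago2-deficient mature (red) and 3 wild-type GV oocytes (blue); filled circles are detected, open circles are not, and black bars show mean and SD over 3 arrays. The groups do not overlap in 6 genes and overlap in Piwil2 and Ddx4, and 1 red circle, that of Piwil2, is filled.

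Piwil1 and Piwil2 are the Piwi proteins known as MIWI and MILI. Piwil1, which binds piRNAs in meiotic and later male germ cells, read 6.10, 5.31 and 6.25 in Ago2-deficient and 9.43, 9.24 and 9.41 in GV oocytes on the log2 scale. The groups did not overlap, and the GV oocytes lay closely together. The log2 difference was -3.47 (standard error 0.37, adjusted p = 0.00042 from limma), and Piwil1 was at least 9.23-fold lower. Its signal-to-noise ratio was 1.05, 1.26 and -1.18 against 17.62, 8.84 and 12.98, so that each GV oocyte stood clear of the limit and no Ago2-deficient oocyte reached it. The signal without scaling between arrays, 85.5 ± 28.3 against 838 ± 204 (SD, n = 3), likewise did not overlap. Piwil1 kept its call under every alternative to the fit after the filter that tested it.

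Piwil2, the Piwi protein that binds piRNAs in mouse oocytes, read 7.08, 7.11 and 7.95 in Ago2-deficient and 7.45, 7.80 and 6.41 in GV oocytes. The groups overlapped, and the probe was detected in Ago2-deficient replicate 3 (S/N 4.0) and, just at the limit, in GV replicate 2 (3.01). It was not tested after the filter. In the fit over every probe the log2 difference was 0.16 (standard error 0.52, adjusted p = 0.879 from limma), and it was -0.22 with cyclic loess. The unscaled signal was 235 ± 2.45 in Ago2-deficient and 121 ± 61.0 in GV oocytes, on arrays whose undetected probes also differed in that direction. Most of these values lie under the detection limit.

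Mov10l1 and Ddx4 are RNA helicases. Mov10l1, which binds piRNA precursors and feeds them to the processing machinery, read 7.19, 6.66 and 7.80 in Ago2-deficient and 8.72, 8.93 and 8.75 in GV oocytes. All GV oocytes lay above all Ago2-deficient oocytes, by 0.92 at the nearest, the smallest gap among the 6 genes. The log2 difference was -1.58 (standard error 0.39, adjusted p = 0.0112 from limma), at least 3.00-fold lower on the quantile-normalized values, but the call was lost in the fit over every probe (adjusted p = 0.0524), with no scaling (-1.15), with cyclic loess (-0.89) and without GV replicate 2 (adjusted p = 0.0502), and the difference was 0.41 when arrays were centred on probes that all 6 detected. Its signal-to-noise ratio in the GV oocytes was 5.65, 10.11 and 5.17.

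Ddx4, the mouse Vasa protein and the classical marker of germ cells, read 6.69, 6.96 and 7.03 in Ago2-deficient and 8.15, 6.81 and 6.50 in GV oocytes. The groups overlapped, and the probe was detected in GV replicate 1 and in no other oocyte (signal-to-noise 3.41). The log2 difference in the fit over every probe was -0.26 (standard error 0.52, adjusted p = 0.801 from limma), and 0.24 without GV replicate 1. The probe of this germ cell marker was thus under the detection limit in 5 of 6 oocytes, on arrays that detected most oocyte markers.

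Mael and Asz1 are granule proteins without a Tudor domain. Mael, the mouse Maelstrom protein needed for transposon silencing, read 6.23, 6.13 and 6.52 in Ago2-deficient and 9.22, 9.03 and 8.75 in GV oocytes. The groups were 2.24 apart at the nearest. The log2 difference was -2.71 (standard error 0.32, adjusted p = 0.000589 from limma), at least 6.55-fold lower, and it was not called when arrays were centred on probes that all 6 detected (-0.78, adjusted p = 0.261). Asz1, which anchors the granules to the outer membrane of mitochondria, read 6.69, 6.85 and 6.84 against 9.30, 8.37 and 8.14. Its Ago2-deficient oocytes were the most alike of any of the 8 genes (SD 0.0879), and among its GV oocytes replicate 1 was higher than the other two. The log2 difference was -1.81 (standard error 0.40, adjusted p = 0.00731 from limma), at least 3.51-fold lower, and it was not called with no scaling (-1.20) and was 0.36 when arrays were centred on probes that all 6 detected. On the unscaled signal GV replicate 3, at 208, lay just above Ago2-deficient replicate 2, at 197, and its signal-to-noise ratio of 3.92 was the lowest among the detected GV values of the 6 genes.

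Tdrd1 and Tdrd7 carry Tudor domains. Tdrd1, which binds MILI, read 6.92, 7.81 and 8.39 in Ago2-deficient and 11.27, 11.31 and 11.64 in GV oocytes. The groups were 2.88 apart at the nearest. The log2 difference was -3.70 (standard error 0.45, adjusted p = 0.000668 from limma), at least 13.0-fold lower, with a bound of 9.90 to 16.5 when single oocytes were left out. Its signal-to-noise ratio was 44.15, 37.51 and 45.58 in the GV oocytes, far above the limit. The Ago2-deficient ratios were 0.76, 2.43 and 2.89, so that replicate 3 lay just under the limit of 3. Without scaling the signal was 210, 340 and 286 against 5837, 4849 and 5971. Tdrd1 kept its call under every alternative to the fit after the filter that tested it. Its difference was smaller under cyclic loess (-1.59) and with centring (-2.78).

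Tdrd7, a granule scaffold that is also expressed outside the germ line, in the lens, read 7.36, 6.33 and 5.69 in Ago2-deficient and 10.02, 9.35 and 10.01 in GV oocytes. The groups did not overlap, and the Ago2-deficient oocytes spread more than for any other of the 8 genes (SD 0.85). The log2 difference was -3.34 (standard error 0.51, adjusted p = 0.00156 from limma), at least 8.76-fold lower. The signal-to-noise ratio was -1.09, 0.41 and -3.88 against 29.74, 11.33 and 17.35. The spot of Ago2-deficient replicate 3, at 5.69, is flagged and is empty in the series table. With the series table the log2 difference was -2.95, and without that replicate the bound was 7.73. Its call was lost when arrays were centred on probes that all 6 detected (-1.77, adjusted p = 0.108).

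**Figure D3:**
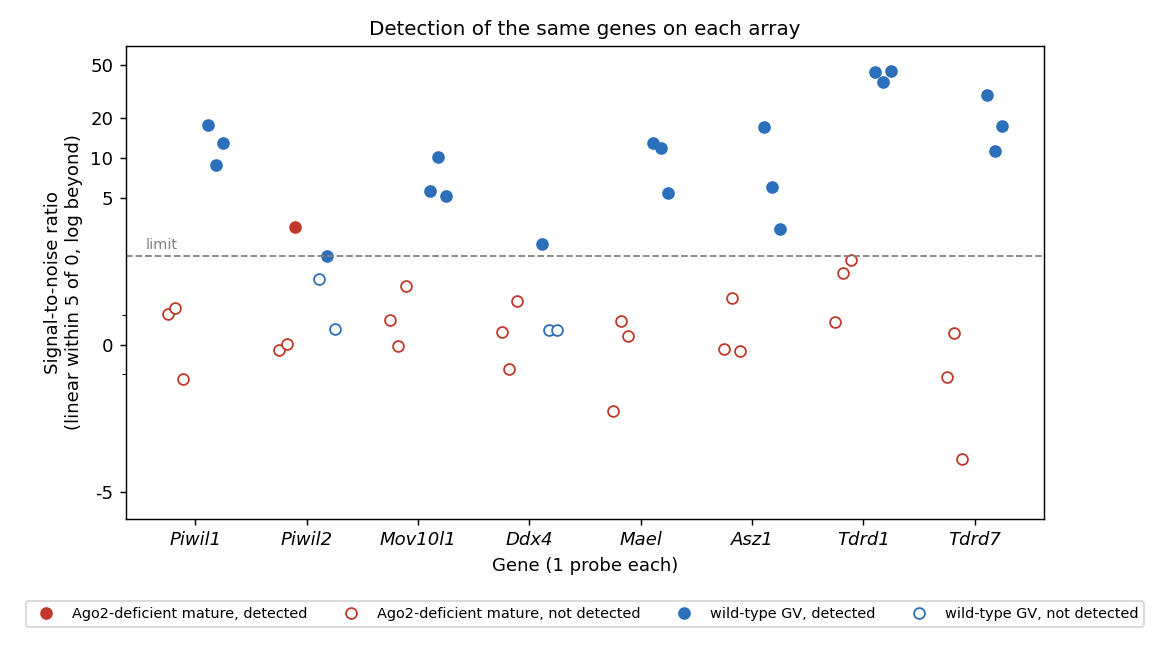
Signal-to-noise ratio (vertical axis, linear within 5 of 0 and logarithmic beyond) of the 8 genes on each array; red is Ago2-deficient mature, blue is wild-type GV, filled circles reach the limit of 3 (dashed line) and open circles do not. In Piwil1, Mov10l1, Mael, Asz1, Tdrd1 and Tdrd7 all blue circles are above the line and all red circles below it.

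How far these genes stood from the rest depended on how the arrays were scaled to each other. The median log2 difference of all 7915 tested genes was -1.39 on the quantile-normalized values, -3.08 with arrays scaled to a common median, -1.98 with no scaling, -0.36 with cyclic loess and -0.42 when arrays were centred on the probes that all 6 of them detected, a scaling added after the data had been seen. Relative to that median Tdrd1 differed by -2.31 on the quantile-normalized values and by -1.24 to -2.36 with the others, and Piwil1 by -2.08 and by -1.35 to -3.27. Tdrd7 (-1.35 to -2.00) and Mael (-0.36 to -2.35) also lay below the median under all 6 scalings. The 6 genes passed the filter through GV oocytes alone, while other tested genes were detected in both groups or passed through Ago2-deficient oocytes. A place below this median is therefore partly set by the filter and supports nothing by itself. Mov10l1 and Asz1 lay close to the median on the quantile-normalized values, at -0.19 and -0.42 relative to it, and above it by 0.83 and 0.78 with a common median, no scaling or centring, which share this value because they only shift whole arrays. Of the 6 tested genes, 4 were lower with no scaling (60.4% of all genes), 5 with cyclic loess (31.8%), 6 with a common median (78.6%) and 2, Piwil1 and Tdrd1, with centring (31.3%). Over all alternatives that kept the filter or made another one, the share of all genes called lower was 21.7% to 78.6%, and in the fit over every probe 5.59% to 19.4%.

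**Figure D4:**
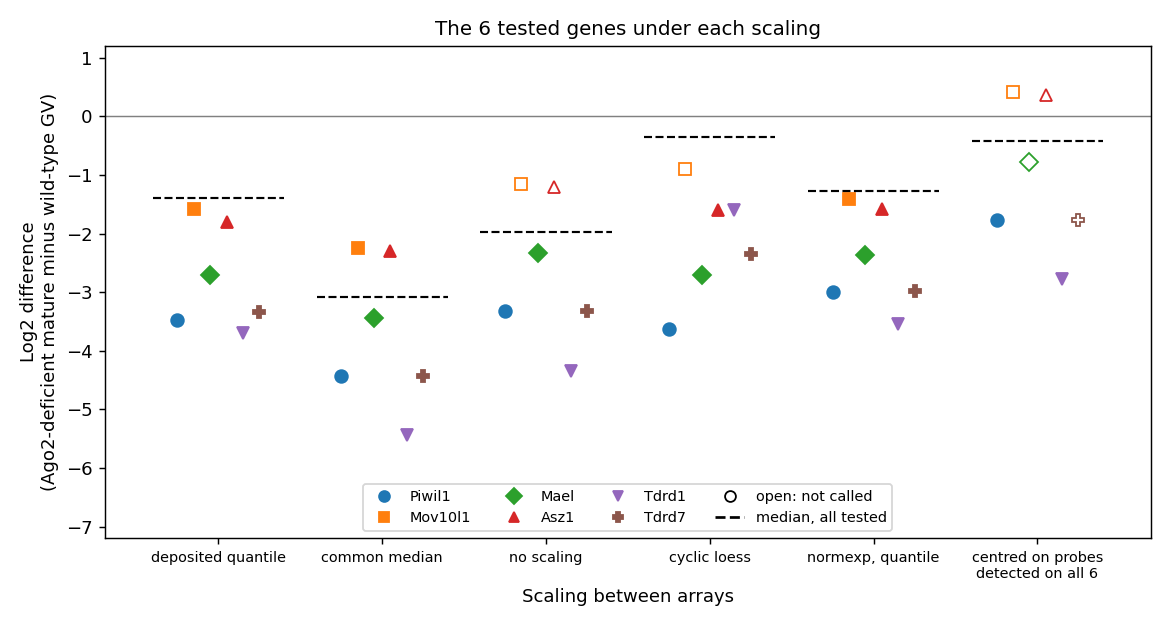
Log2 difference, Ago2-deficient mature minus wild-type GV (vertical axis), of the 6 tested genes under 6 scalings between arrays (horizontal axis); filled symbols are called and open symbols are not, and dashed lines are the median of all tested genes. Piwil1 and Tdrd1 are filled under all 6 scalings, while Mov10l1 and Asz1 move from below 0 to above 0 (0.41 and 0.36) with centring.

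Other genes of the pathway, from a list of 20 of which 10 had a probe, were next compared. Of the 10, 5 were lower and 1 was higher in the fit over every probe, beside 9.12% and 5.26% of all genes. The counts were also 5 and 1 among the 6 tested after the filter, beside 44.8% and 17.4%. Exd1 and Tdrd12, partners of each other and of Piwi proteins in piRNA production, were high in GV oocytes and detected in no Ago2-deficient oocyte. Exd1 read 8.11, 6.54 and 7.04 against 13.02, 13.05 and 12.85 and was at least 53.6-fold lower on the quantile-normalized values (log2 difference -5.74, standard error 0.46, adjusted p = 0.000195 from limma), and its difference was -3.61 with cyclic loess and -4.91 with centring. Tdrd12 read 6.72, 11.67 and 7.69 against 12.75, 12.97 and 13.20, at least 19.5-fold lower (adjusted p = 0.0202 from limma), and the middle value belongs to a spot with a signal-to-noise ratio of -0.09. Its bound was 54.7 without Ago2-deficient replicate 2 and 9.82 without Ago2-deficient replicate 1, and its call was lost without Ago2-deficient replicate 3 or any 1 GV oocyte (adjusted p = 0.0575 to 0.0651).

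Dnmt3l, the cofactor of DNA methylation in germ cells, read 9.69, 9.28 and 9.96 against 13.08, 12.74 and 13.11, which gave -3.33 as difference (standard error 0.34, adjusted p = 0.000362 from limma), and was detected in 1 Ago2-deficient oocyte. Stk31, a Tudor domain protein, was at least 6.80-fold lower, and Morc1, needed for transposon silencing in male germ cells, at least 3.99-fold lower; these 2 complete the count and were named after their values were seen. Tex15, a nuclear partner of piRNA-directed silencing, went the other way. It read 13.45, 13.25 and 13.34 in Ago2-deficient and 7.42, 10.10 and 9.29 in GV oocytes. The log2 difference was 4.41 (standard error 0.68, adjusted p = 0.0017 from limma). Tex15 was detected in 3 Ago2-deficient and 2 GV oocytes. It was called higher under every alternative to the fit after the filter that tested it. The 4 others on the array, Piwil4, Henmt1, Mybl1 and Kif17, were not called.

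Among 7 measured genes for arginine methylation and Tudor domain partners, 2 were lower and 0 higher in the fit over every probe, beside 9.12% and 5.26% of all genes; at an unadjusted p under 0.05 the counts were 2 and 1. The 2 were Tdrd3, a Tudor protein of messenger RNA granules, differing by -3.53 (standard error 0.63, adjusted p = 0.00292 from limma), and Clns1a, a subunit of the Prmt5 methyltransferase complex, at least 8.19-fold lower (5.61 to 11.7 when single oocytes were left out). Both lost their call under cyclic loess. Mov10, the somatic relative of Mov10l1, read 8.78, 6.60 and 9.95 against 9.87, 10.24 and 8.60, which overlapped, and was not called (-1.13, adjusted p = 0.311 from limma).

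Among 9 measured germ cell RNA-binding proteins, 2 were lower and 0 higher in the fit over every probe. The shares of all genes were 9.12% and 5.26%. The counts at an unadjusted p under 0.05 were 2 and 1, beside 8309 of 32441 genes in either direction. Nanos1, a translational repressor, read 8.53 to 9.47 against 12.70 to 13.15, with no overlap (log2 difference -3.87, standard error 0.37, adjusted p = 0.000303 from limma). Ddx25, a helicase of the male germ granule, was at least 5.22-fold lower on the quantile-normalized values, but was not called with cyclic loess (-0.92, adjusted p = 0.0857 from limma) or with centring (-0.78, adjusted p = 0.237). Dazl, the germ cell translation factor, read 7.42, 6.88 and 10.94 against 10.17, 8.39 and 8.52 and was not called (-0.62, adjusted p = 0.652 from limma). Its highest Ago2-deficient value, in replicate 3, lay above every GV oocyte, and without that oocyte it was called lower (-1.88, adjusted p = 0.0438). Ddx6, a repressor helicase shared with somatic granules, was called higher after the filter (2.55, adjusted p = 0.0307) but not in the fit over every probe (adjusted p = 0.0806), and its second probe overlapped between the groups.

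**Figure D5:**
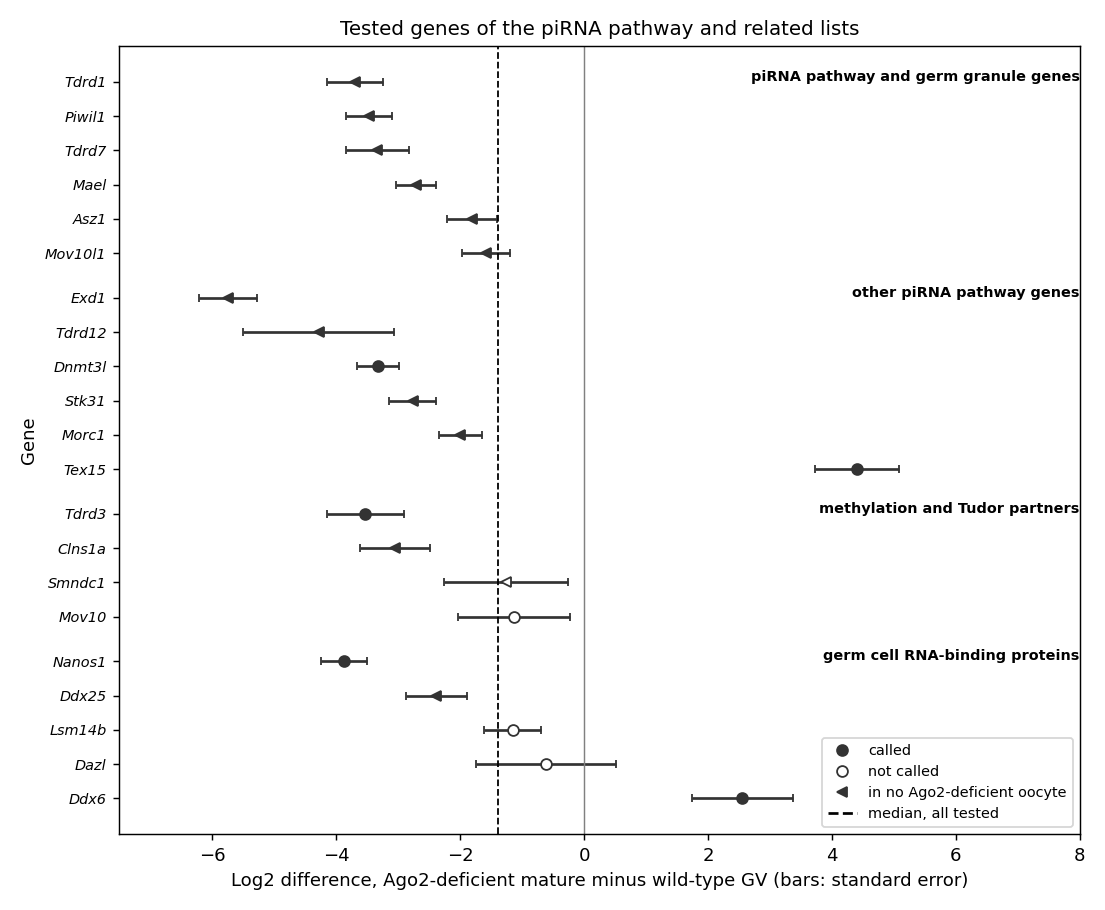
Log2 difference, Ago2-deficient mature minus wild-type GV (horizontal axis), of the tested genes in 4 groups, with bars for the standard error; filled symbols are called, open symbols are not, triangles mark genes that no Ago2-deficient oocyte detected (plotted at the fitted value, not the bound), and the dashed line shows the all-gene median, -1.39. Tex15 at 4.41 and Ddx6 at 2.55 are the symbols right of 0.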

How the data were processed

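Single-oocyte cDNA was amplified, labelled with digoxigenin as cRNA from equal amounts of cDNA, and hybridized by the authors to Applied Biosystems V2.0 mouse arrays; values are therefore shares of amplified cDNA. Per spot the authors deposited the scanner's signal intensity, not scaled between arrays, a score for signal over noise, and a code for flagged spots. The authors also deposited log2 values that were quantile normalized over the 6 arrays, and these were analysed; the series table repeats them except for 2675 empty cells. Neither scanner software nor genome build is named in the sources used here.

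A single gene symbol was given for 14411 probes, several for 247 and none for 18354; symbols were checked through gene identifiers (14402 found). Where more than 1 probe of a gene was tested, the one with the highest mean stood for it. The fits used limma 3.58.1 (lmFit and eBayes; R 4.3.3) without a replicate block, adjusted by Benjamini and Hochberg over all probes of a fit (8018 after the filter, 33012 without it), and the fit was tested on simulated data. The number of arrays limits the precision. Leaving out an array kept the deposited normalization. Figures were made with matplotlib 3.10.9 under Python 3.11.15.

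The members, lists, tests and alternatives were chosen with earlier results of these data known. Genes named are every member and, in each other list, up to 4 called genes with the largest difference and up to 2 tested genes not called with the highest mean, unless said otherwise; Smndc1 and Lsm14b, named by this rule, are given with the alternatives. Alternatives covered scaling, background, filter, detection limit, variance model, series table, fold limit, replicate block and each array left out.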

Additional observations from a re-analysis of the deposited data

How the results depend on the processing

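Of the 8 measured genes, Piwil1 and Tdrd1 kept their call under each alternative to the fit after the filter that tested them. The count of lower genes among the 6 tested was 4 to 6 under the alternatives other than centring, with 5 to 6 when single oocytes were left out, and 2 when arrays were centred on probes that all 6 detected, which was added after the data were seen. In the fit over every probe it was 4 to 6, with 4 to 5 when single oocytes were left out. With centring it was 2 and 2 genes were higher, Piwil2 (2.68) and Ddx4 (2.30), under a scaling that moved the median of all genes to 2.52. Centring also turned Mov10l1 (0.41), Asz1 (0.36) and Dazl (0.90), and left 3 other piRNA pathway genes lower in place of 5. Piwil2 was -0.22 with cyclic loess, -0.12 when Ago2-deficient replicate 3 was left out and -0.24 when GV replicate 3 was (range -0.24 to 0.45), and Ddx4 was 0.75 with no scaling and 0.24 without GV replicate 1 (range -0.58 to 0.24). The lower genes among methylation and Tudor partners numbered 2, but 4 with a common median and 0 with cyclic loess, where Smndc1 (-1.26, adjusted p = 0.304 from limma) was 0.26 and Mov10 0.29; Smndc1 was called without Ago2-deficient replicate 1 (-2.24, adjusted p = 0.0362 from limma). Among germ cell RNA-binding proteins 1 was lower with cyclic loess (Dazl 0.70), Lsm14b (-1.15, adjusted p = 0.0664) was called at -4.01 with a common median and without Ago2-deficient replicate 2 (-1.59, adjusted p = 0.0105 from limma), and Dazl was 0.15 without Ago2-deficient replicate 2 (range -1.88 to 0.15). The 1 higher gene there, Ddx6, was lost (0) with a common median, with no filter, with a detection limit of 5 and with array weights, and in 4 of 6 fits that left out an oocyte (Ago2-deficient replicate 2 or 3, GV replicate 1 or 2) the count was 0, otherwise 1. The mean number of the 8 genes detected was 0.333 per Ago2-deficient and 6.67 per GV oocyte, 1.33 and 7 at a detection limit of 2, and 0 and 5.67 at a limit of 5. None of the 8 genes was detected on all 6 arrays, so that filter gave no value. The causes were not tested, and an undetected gene has only a bound. The replicate numbers did not pair the oocytes (r = -0.0487, 0.0275 and -0.0339 for deviations of the same number); with a replicate block the count of lower genes was 6, as without it, and over every probe 4 in place of 5.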

Other observations

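Within the Ago2-deficient group, 6 of the 8 genes had their highest log2 level on the array of replicate 3, the array with the most detected probes of that group (6798). Within the GV group, 5 of the 8 were highest in replicate 1, the array with the most detected probes of all (11334). The relation was not tested, and no share over all genes was computed. On the Ago2-deficient arrays 0, 0 and 1 of the 8 were detected, so that the first ranking is mostly of undetected readings.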
